A study of Danio rerio with 6 samples.

Results

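The mitochondrial tRNAs trnS1, trnS2, trnD, trnK, trnG, trnR, trnH and trnL1 were followed through the first day of zebrafish development. They were chosen by name as the tRNA genes that lie between COX1 and ND5, and they are 8 of the 22 mitochondrial tRNAs listed. RNA of tRNA size came from wild-type TU zebrafish at 6 stages, 1 library per stage, namely mature egg, the 1cell, 256cell, sphere and shield stages, and 24hpf, a day after fertilisation. Each library was made from a pool of about 50 to 100 eggs or whole embryos, and all 6 were treated with ALKB enzymes, which remove some base methylations that stop reverse transcription. Egg, 1cell and 256cell precede broad transcription from the embryo's nuclear genome, and sphere, shield and 24hpf follow its start. Differences between stages have no replicate check, since a stage is 1 library. In whole eggs and embryos, a smaller part of the library can mean fewer mitochondria, less tRNA per mitochondrion or more of other RNAs. These cannot be told apart here.

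Vertebrate mitochondria make their own tRNAs from a small circular genome that is transcribed as long RNAs carrying many genes. The tRNAs sit between the coding genes like punctuation, and cutting them out by RNase P and RNase Z frees the mRNAs on either side. A CCA tail is then added and the tRNA is modified and charged with its amino acid. Each of the tRNAs serves only the ribosome inside the organelle, which makes core subunits of the respiratory chain and of ATP synthase. The mitochondria of an early embryo are inherited from the egg.

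The names in the table match the RefSeq symbols of the mitochondrial tRNAs (22 of 22, assembly GRCz12tu, used for names and neighbours only). By those names trnD lies between trnS1 and COX2, trnK between COX2 and ATP8, trnG between COX3 and ND3, trnR between ND3 and ND4L, and trnH between ND4 and trnS2. The numbering of the serine and leucine tRNAs is not settled by the table. RefSeq gives the name trnS1 to the serine tRNA beside COX1 and trnS2 to the one beside trnH, and other naming schemes turn the numbers round. For leucine, RefSeq calls the tRNA beside ND5 trnL2 and places trnL1 between the large rRNA gene mt-rnr2 and ND1. With RefSeq's numbering 7 of the 8 named tRNAs therefore lie between COX1 and ND5, and trnL2 takes the place of trnL1 as the 8th. Values of trnL2 are given where that choice matters. Both serine tRNAs lie in the region under either numbering.

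Each library held 3324546 to 7096801 reads, of which 241206 (24hpf) to 1432257 (1cell) were in the mitochondrial table and 39495 to 273120 belonged to the 8 members. Levels are given as RPM (the read number divided by the library total and multiplied by a fixed factor) and as the share of the mitochondrial total. The mitochondrial values came in steps of 2 reads. Of the 132 values, 125 were even read numbers, and of the members' 48 values 46 were even, the exceptions being trnH in egg and at 24hpf. Among the cytoplasmic values even read numbers made up 49.6%. The sources used here do not give a reason. Shares within the mitochondrial table do not change if every fragment was counted 2 times, and all counting intervals below treat a step of 2 reads as 1 observation. They are 95% intervals for counting error only, since without molecular identifiers the PCR copies of a molecule are counted separately.

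Together the 8 members held 16.4% to 21.1% of the mitochondrial reads, and the lowest share was at 24hpf. The summed share was 18.7% in egg (exact Clopper-Pearson interval 18.6 to 18.9), 19.1% in 1cell, 20.2% in 256cell, 21.1% in sphere, 20.6% in shield and 16.4% in 24hpf (16.2 to 16.6). The log2 ratio of the summed share was -0.20 for 24hpf over egg (-0.22 to -0.17). Without trnR and trnG, a split made after the values were seen, the other 6 members held 12.7% at 24hpf, the highest of the 6 libraries, and 9.56% in egg. With trnL2 in the place of trnL1 the summed share was 40.9% at 24hpf and 56.5% in egg, a log2 ratio of -0.47, with trnL2 alone making up 28.0% at 24hpf and 40.3% in egg. In that set the lowest share was in 1cell (33.1%), not at 24hpf, and 256cell, sphere and shield held 42.7%, 42.8% and 45.1%.

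The members fell into 3 classes of abundance by reads per tRNA; lengths were not used here, and reads per tRNA also depend on how well each RNA is copied. The arginine tRNA trnR and the histidine tRNA trnH were common, with mean shares of 8.16% and 7.67%, and trnL1, a leucine tRNA, followed with 3.19%. The glycine tRNA trnG (0.148%), the lysine tRNA trnK (0.0687%), the serine tRNA trnS2 (0.0646%) and the aspartate tRNA trnD (0.0458%) were rare. The other serine tRNA, trnS1, was the rarest of all 22 mitochondrial tRNAs in each of the 6 libraries, with a mean share of 0.00784%. Between 758.6 reads (1cell) and 1660.5 reads (256cell) of the most abundant member were found per read of trnS1. trnR and trnH together held 77.01% to 84.89% of the members' reads. In the order of mean shares, trnH stood above trnL1, trnL1 above trnG and trnD above trnS1 in 6 of 6 libraries. The other neighbours changed places between stages: trnR was above trnH in 4 libraries, trnG above trnK in 5, trnK above trnS2 in 4 and trnS2 above trnD in 3.

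**Figure D1:**
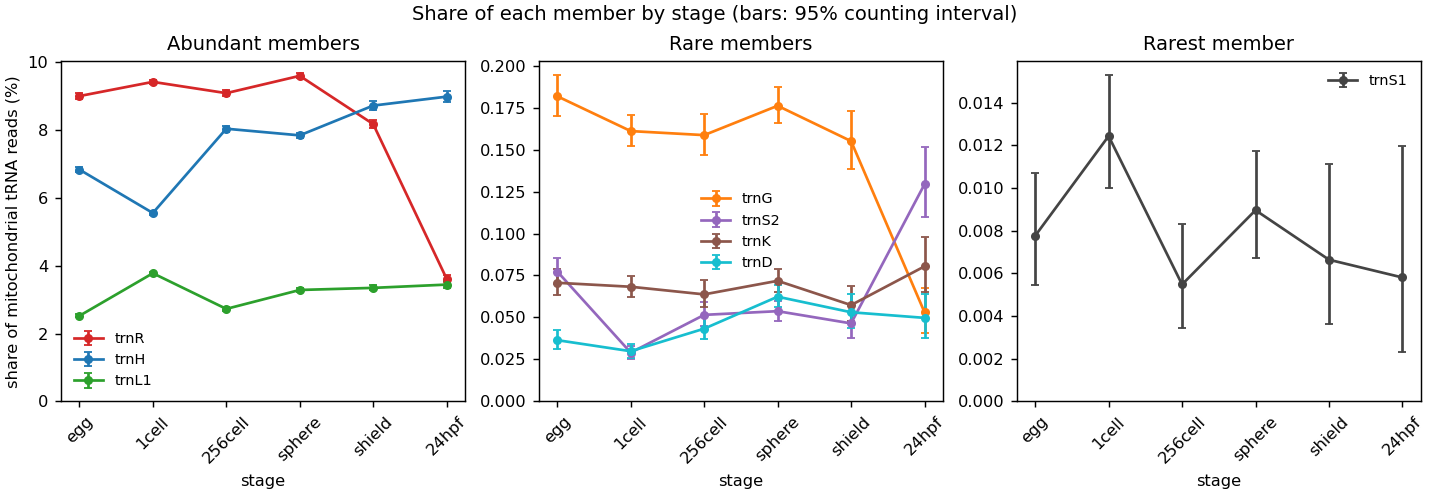
Share of mitochondrial tRNA reads (y axis, percent) for each member at each stage (x axis), in 3 panels with different scales; points are single libraries and bars are 95% counting intervals. trnR and trnG lie within a narrow band in the first 5 libraries and are lower at 24hpf (3.62% and 0.0531%), while trnS2 is highest at 24hpf (0.129%).

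Of the 8 members trnR and trnG, which lie on either side of ND3 (a subunit of respiratory complex I), took a share at 24hpf at least 2-fold below that in egg. trnR, which reads the CGN arginine codons, held 9.01% of the mitochondrial reads in egg, 9.43% in 1cell, 9.10% in 256cell, 9.61% in sphere, 8.18% in shield and 3.62% in 24hpf (3.51 to 3.72). trnG, which reads the GGN glycine codons, held 0.182%, 0.161%, 0.159%, 0.176%, 0.155% and 0.0531% (0.0409 to 0.0678) over the same stages. In both, the first 5 libraries lay close together and the 24hpf library stood apart. The log2 share spanned 0.23 over those 5 libraries for trnR and for trnG, the 2 smallest spans among the 22, and the 24hpf value lay 1.18 and 1.49 below the lowest of them. The depth behind the 24hpf values was 8726 reads for trnR and 128 reads for trnG.

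trnR had 1419 RPM at 24hpf and 12112 RPM in egg, an 8.53-fold difference, and trnG had 20.8 RPM at 24hpf and 244 RPM in egg, an 11.7-fold difference. As shares, trnR was at -1.32 on the log2 scale for 24hpf over egg (interval -1.36 to -1.27) and trnG at -1.71 (-2.17 to -1.41). A pseudocount of 1 RPM was added before each log2 share, and the intervals rest on the reads alone. These were the only mitochondrial tRNAs at least 2-fold lower by share, 2 of the 22 or 9.09%, and none was at least 2-fold higher (0.0%). Both are members, and the nearest of the other tRNAs were trnA at -0.98 and trnP at -0.95. Differences among egg, 1cell and 256cell, which are different stages and not replicates, gave a rough yardstick. Over the 22 tRNAs their median size was 0.52 and their 95th percentile 1.15 on the log2 scale. Only trnR and trnG exceeded that percentile between 24hpf and egg. Some values pass a 95th percentile by its definition, so this is a description and not a test. The largest difference among those 3 libraries was 1.62, that of trnY, which trnR did not reach. Divided by the mitochondrial total without trnV, on average the most abundant mitochondrial tRNA, trnR was at -0.94, short of 2-fold, and trnG at -1.34. With 1cell and 256cell in the place of egg trnR was at -1.38 and -1.33, and trnG at -1.54 and -1.52. However, 5 of the 22 were at least 2-fold lower with 1cell as the baseline and 3 with 256cell, 2 of them members each time. Against egg, median-ratio factors in place of the share gave 4 of the 22 at least 2-fold lower, and leaving trnV out of the total gave 1. That trnR and trnG were the only ones past 2-fold therefore holds against egg by share of the whole mitochondrial total. It does not hold against the other baselines or under these other scalings.

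**Figure D2:**
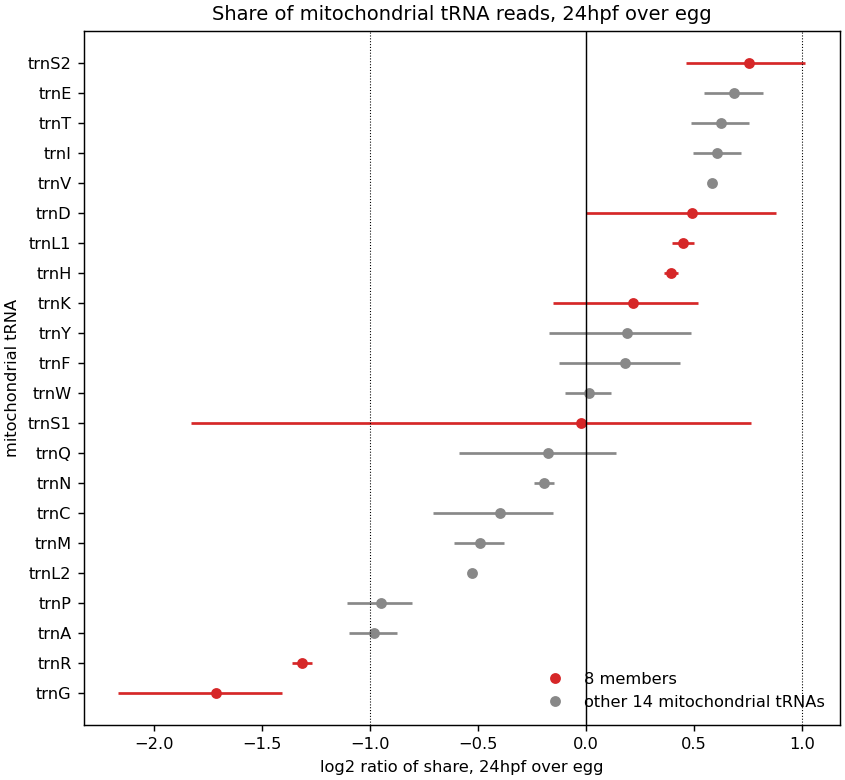
Log2 ratio of the share of mitochondrial tRNA reads (x axis) for 24hpf over egg, for the 22 mitochondrial tRNAs (y axis), members in red; points include a pseudocount of 1 RPM, lines are 95% counting intervals from the reads and dotted lines mark 2-fold. trnG (-1.71) and trnR (-1.32) are lowest and trnS2 (0.76) is highest.

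Ratios between 2 members of the same library need no scaling. Per read of trnH there were 1.32 reads of trnR in egg, 1.70 in 1cell, 1.13 in 256cell, 1.22 in sphere, 0.937 in shield and 0.402 in 24hpf (0.388 to 0.417). trnR was thus the more abundant of this pair in the first 4 libraries, and trnH in the last 2. Per read of trnK there were 2.57, 2.36, 2.49, 2.45 and 2.70 reads of trnG in the first 5 libraries and 0.660 at 24hpf (0.474 to 0.914). trnR and trnG kept a steadier ratio to each other, with 49.6 reads of trnR per read of trnG in egg, 58.6 in 1cell, 57.3 in 256cell, 54.6 in sphere, 52.8 in shield and 68.2 in 24hpf (53.3 to 88.7). The interval at 24hpf overlapped those of the 4 libraries from 1cell to shield, and its lower end lay just above the upper end of the interval in egg (53.1).

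**Figure D3:**
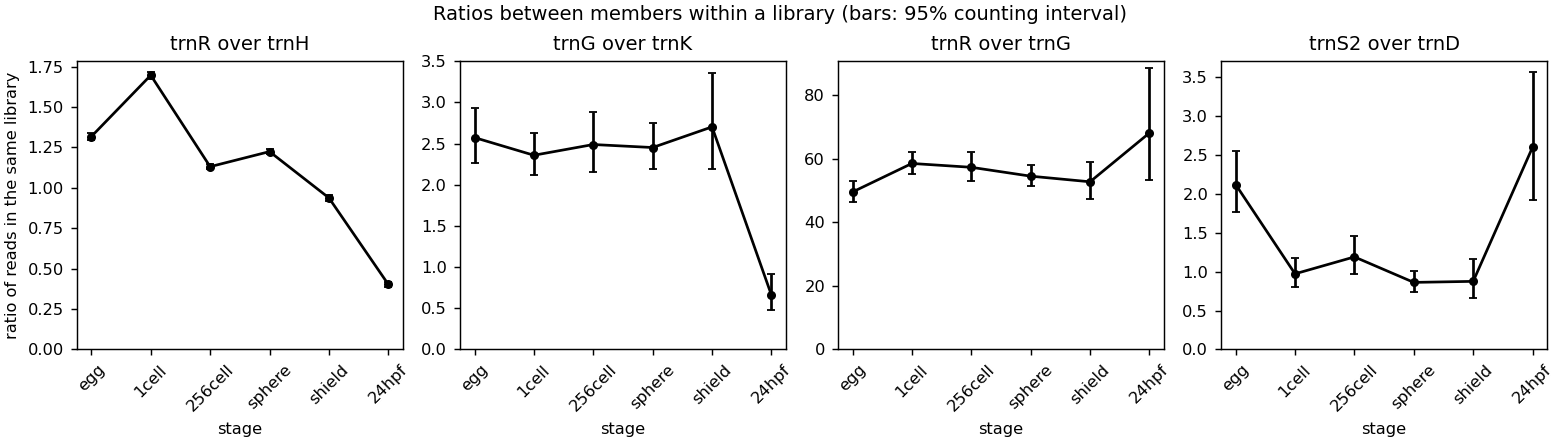
Ratio of the reads of 2 members in the same library (y axis, from 0) at each stage (x axis); points are single libraries and bars are 95% counting intervals. The ratio of trnR to trnH and of trnG to trnK is lowest at 24hpf (0.402 and 0.660), that of trnR to trnG stays between 49.6 and 68.2, and that of trnS2 to trnD is highest at 24hpf (2.60).

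The serine tRNA trnS2 took its highest share at 24hpf. Serine has a pair of tRNAs in vertebrate mitochondria, one for the UCN and one for the AGY codons, and the AGY tRNA of animals lacks the D arm. Which of them trnS2 is depends on the numbering. It held 0.0774% of the mitochondrial reads in egg, 0.0290% in 1cell, 0.0515% in 256cell, 0.0537% in sphere, 0.0465% in shield and 0.129% in 24hpf (0.110 to 0.151, from 312 reads). The 24hpf share was the highest and the 1cell share the lowest, and the counting intervals of these 2 libraries overlapped with no other. In RPM it had 104 in egg, 68.3 in 1cell, 125 in 256cell, 108 in sphere, 46.5 in shield and 50.7 in 24hpf. From highest to lowest library its RPM differed 2.68-fold, less than that of any other member (5.09-fold to 18.4-fold). By share trnS2 had the highest ratio of all 22 mitochondrial tRNAs for 24hpf over egg, at 0.76 on the log2 scale (0.46 to 1.02). The next were trnE at 0.69 and trnT at 0.63, which are not members and lie inside that interval. In RPM trnS2 was at -1.02. It passed 2-fold when 1cell (2.16), 256cell (1.34) or, in an alternative chosen after seeing the data, the median of the 5 earlier libraries (1.34) stood in the place of egg, and without trnV in the total (1.13).

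trnS1 did not share this course. It had 10.4 RPM in egg, 29.2 in 1cell, 13.2 in 256cell, 18.0 in sphere, 6.65 in shield and 2.28 in 24hpf, from 74, 178, 44, 106, 28 and 14 reads. Its share was highest at 1cell (0.0124%, interval 0.00998 to 0.0153), and at 24hpf it was 0.00580% (0.00233 to 0.0120). The 24hpf interval overlapped those of all other libraries, so these reads did not separate 24hpf from the other stages. For 24hpf over egg the log2 ratio was -0.03 with the pseudocount and -0.42 from the reads alone (-1.83 to 0.77). Per read of trnS1 there were 2.34 reads of trnS2 in 1cell (1.81 to 3.03) and 22.3 at 24hpf (10.6 to 56.3).

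trnD, the aspartate tRNA ahead of COX2, and trnK, the lysine tRNA behind it, varied less than trnS2 in share, though more in RPM (6.42-fold and 5.09-fold from highest to lowest library). trnD held 0.0365% in egg, 0.0299% in 1cell, 0.0433% in 256cell, 0.0624% in sphere, 0.0531% in shield and 0.0498% in 24hpf. Its 24hpf over egg ratio was 0.49 on the log2 scale, and the counting interval (-0.00 to 0.88) reached 0. trnK held 0.0706%, 0.0683%, 0.0637%, 0.0718%, 0.0574% and 0.0804% over the same stages. Its highest share was 1.40 times its lowest, the narrowest range of the 8, and its 24hpf over egg ratio was 0.22 (-0.15 to 0.52). Per read of trnD there were 2.60 reads of trnS2 at 24hpf and 2.12 in egg, against 0.862 to 1.19 in the libraries between them. The reads of trnD and its RefSeq neighbour trnS1 did not keep 1 ratio either, with 0.416 reads of trnS1 per read of trnD at 1cell (0.321 to 0.535) and 0.117 at 24hpf (0.0450 to 0.255).

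trnH and trnL1, the abundant members beside trnR, took larger shares at 24hpf than in egg, by less than 2-fold. trnH held 6.84% in egg, 5.56% in 1cell, 8.05% in 256cell, 7.85% in sphere, 8.73% in shield and 8.99% in 24hpf. trnL1 held 2.52%, 3.78%, 2.73%, 3.29%, 3.35% and 3.45% over the same stages. On the log2 scale 24hpf over egg was at 0.39 for trnH (0.36 to 0.43) and 0.45 for trnL1 (0.40 to 0.50), and both ratios were negative in RPM, at -1.38 and -1.33. For trnL1 the ratio turned to -0.13 with 1cell in the place of egg. There were 2.71 reads of trnH per read of trnL1 in egg, 1.47 in 1cell, 2.95 in 256cell, 2.39 in sphere, 2.61 in shield and 2.61 in 24hpf, so the 1cell library stood apart. trnL2, the leucine tRNA beside ND5 by RefSeq's names, held 40.3% of the mitochondrial reads in egg and 17.8% in 1cell, and between 25.0% and 28.0% in the other 4 libraries. For 24hpf over egg trnL2 was at -0.53.

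Over the 8 members the median log2 share ratio for 24hpf over egg was 0.31, beside 0.10 over all 22 mitochondrial tRNAs. Of the members 5 were above 0 and 3 below, beside 12 and 10 of the 22. The 11 tRNAs commonly placed on the heavy strand, serine and leucine tRNAs left out, had a median of 0.22, and the 2 of them that were at least 2-fold lower are trnR and trnG. The 7 of the light strand had a median of -0.19 and none past 2-fold. The members on either side of trnG and trnR in the gene order, trnK (0.22) and trnH (0.39), were above 0. Of the members, the 24hpf share lay outside the range of the other 5 libraries in 5: below it in trnR and trnG, and above it in trnS2 (by 0.76), trnK (0.20) and trnH (0.04). The other 14 tRNAs had 5 outside, 2 above and 3 below, the farthest being trnC at -0.40. For trnH the counting interval at 24hpf (8.83 to 9.15) overlapped that in shield (8.61 to 8.85). For trnK it (0.0652 to 0.0981) overlapped that in sphere (0.0652 to 0.0790), so the reads alone did not separate these libraries.

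In RPM every member was lower at 24hpf than in egg, as were all 22 mitochondrial tRNAs, which together held 3.92% of the library at 24hpf and 13.4% in egg. Each of the 8 was at least 2-fold lower, beside 100.0% of the 22, and the members' median was -1.47 beside -1.68 over all. Scaling by RPM in place of the share shifted the median over the 22 by -1.78. The RPM of 6 members was highest at 1cell or 256cell with the lowest value at 24hpf. The same held for every mitochondrial tRNA that is not a member, so this course is not particular to the members. The exceptions among the 22 were the members trnD, which was highest at sphere, and trnS2, which was lowest at shield. trnH, for example, had 9196 RPM in egg, 13064 in 1cell, 19440 in 256cell, 15766 in sphere, 8743 in shield and 3528 in 24hpf. trnR had 12112, 22158, 21976, 19294, 8196 and 1419 RPM over the same stages.

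**Figure D4:**
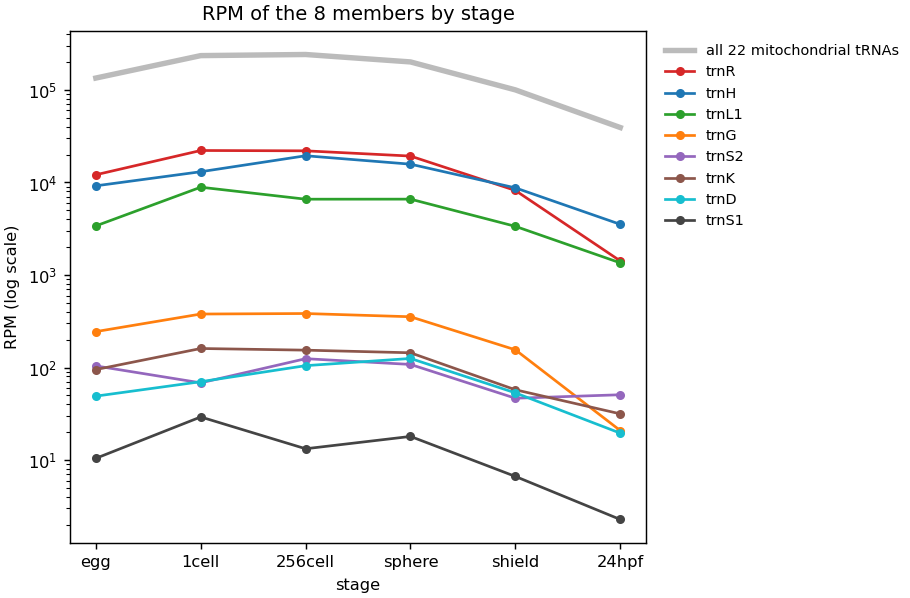
RPM (y axis, log scale) of the 8 members and of all 22 mitochondrial tRNAs together (grey) at each stage (x axis), single libraries. Every member is lower at 24hpf than in egg; trnR runs above trnH until sphere and below it from shield on, and trnG drops to the level of trnD at 24hpf (20.8 and 19.5 RPM).

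Steps between neighbouring stages each compared 2 single libraries, so a change with stage and a deviant library cannot be told apart. By share no member differed 2-fold between 256cell and sphere or between sphere and shield, where none of the 22 did (0.0%). At 24hpf against shield 2 members were at least 2-fold lower, trnG at -1.49 (-1.96 to -1.16) and trnR at -1.18 (-1.23 to -1.13), and these were the only 2 of the 22 (9.09%). In the same step trnS2 was at 1.47 (1.10 to 1.86), the only one of the 22 at least 2-fold higher (4.55%). trnH, trnL1 and trnD were between -0.05 and 0.04, and trnK was at 0.51 (0.09 to 0.88). trnS1 was at 0.13 with the pseudocount and -0.19 from the reads alone (-1.74 to 1.21 from 14 and 28 reads). At 1cell against egg trnS2 was at -1.41 (-1.67 to -1.16), 1 of 5 tRNAs at least 2-fold lower (22.7%), and 2 others were higher (9.09%). At 256cell against 1cell trnS1 was at -1.13 (-1.93 to -0.50 from 44 and 178 reads), the only one past 2-fold (4.55%). In RPM 6 of the 8 members were at least 2-fold lower at shield than at sphere (72.7% of the 22), and 6 at 24hpf than at shield (86.4%). The exceptions in RPM were trnH (-0.85) and trnL1 (-0.98) in the first of these steps, and trnS2 (0.12) and trnK (-0.84) in the second.

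Sphere, shield and 24hpf, the later libraries, were set against egg, 1cell and 256cell, the earlier ones. trnD was the only member, and the only one of the 22 (4.55%), whose later shares all lay above its earlier ones. Its counting intervals in shield (0.0437 to 0.0639) and 24hpf (0.0380 to 0.0640) overlapped that in 256cell (0.0371 to 0.0503). The reads alone thus did not separate these libraries. trnD averaged 0.0551% ± 0.00653 in the later and 0.0366% ± 0.00672 in the earlier libraries (SD, n = 3 each). The log2 difference was 0.62 with a standard error of 0.17. Here and below n counts different stages and not replicates, so SD and standard error also hold differences between stages. The two-sided exact permutation p was 0.1, the smallest that 3 libraries against 3 allow, and 0.786 after Benjamini-Hochberg adjustment over the 22, so this design cannot reach 0.05. The difference was positive under each scaling to mitochondrial reads and without any 1 library (0.48 to 0.74), but it turned to -0.47 in RPM. No member, and none of the 22, lay lower in each later library (0.0%), and none differed 2-fold between the means (0.0% in either direction).

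trnH was at 0.34 ± 0.17 on the log2 scale (difference and standard error, exact permutation p 0.2), with 8.52% ± 0.598 in the later and 6.81% ± 1.24 in the earlier libraries (SD, n = 3 each). It was at 0.20 without 1cell and at 0.46 without 256cell. trnR was at -0.48 ± 0.44 and trnG at -0.54 ± 0.53 (exact permutation p 0.4 for both), and both rested on the 24hpf library, without which they were at -0.05 and -0.01; without sphere they were at -0.75 and -0.84. trnS2 was at 0.50 ± 0.62 (exact permutation p 0.5) and ranged between 0.04 without 24hpf, 0.13 without 1cell, 0.78 without shield and 0.83 without egg. trnL1 was at 0.18 ± 0.18 (exact permutation p 0.4), and at 0.065 without egg and 0.36 without 1cell. trnK was at 0.05 ± 0.15 (exact permutation p 0.8) and trnS1 at -0.03 ± 0.34 (exact permutation p 0.9). The median over the members was 0.12, beside 0.00 over all 22. Taking different stages as if they were replicates, edgeR's quasi-likelihood test on the reads and limma on the log2 shares each called 0 of the 22 at an adjusted p under 0.05, and 0 of the 22 had an unadjusted p under 0.05 in either. The lowest adjusted p of a member was 0.614 in edgeR (trnD, log2 fold change 0.49) and 0.503 in limma, shared by trnD, trnR, trnG and trnS2.

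**Figure D5:**
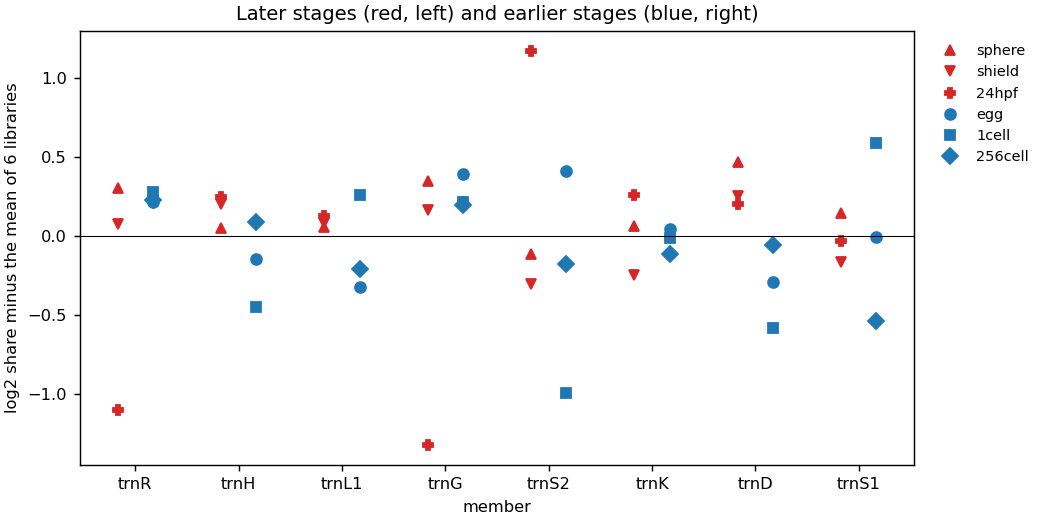
Log2 share of each member minus its own mean over the 6 libraries (y axis), with the 3 later stages in red to the left and the 3 earlier stages in blue to the right; each symbol is 1 library. Only in trnD do all red symbols lie above all blue ones, and the 24hpf symbols of trnR, trnG and trnS2 lie apart from the other 5 libraries.

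The courses of the members were compared by the root mean square difference between their log2 shares, each centred on its own mean over the 6 libraries. trnG and trnR were each other's nearest among the 22, at 0.13, the 3rd smallest of 231 pairs (Pearson r 0.99 over 6 libraries that share their totals, with 24hpf far from the other 5 in both). The next nearest to trnR was trnC at 0.35. trnL1 was nearest to trnT, the threonine tRNA behind CYTB, at 0.09, the smallest of all pairs, and then to trnV at 0.13. trnD and trnH were each other's nearest at 0.20, and trnK was nearest to trnQ at 0.22 and trnS1 to trnN at 0.24. trnS2 had no close match, with trnW nearest at 0.39. Of the direct neighbours, trnH and trnS2 differed by 0.55, trnS1 and trnD by 0.58, and the median over all 231 pairs was 0.51 (0.58 over the 28 pairs of members).

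Set against the cytoplasmic reads for the same amino acid, the members had a lower ratio at 24hpf than in egg for every amino acid. For trnH, for example, it was 0.0155 in egg and 0.00511 at 24hpf. Only the arginine pair changed order. trnR had 1419 RPM at 24hpf beside 4793 RPM for the listed cytoplasmic arginine reads, and in egg it had 12112 RPM beside 1783 RPM. Only listed sequences are summed here. Mitochondrial reads were 13.4% of the library and 16.8% of the listed reads in egg, and 23.5% and 35.7% at 1cell. The part of a library that was not listed thus differed between stages. The ratio of trnR to cytoplasmic arginine reads was 6.79 in egg, 4.57 in 1cell, 6.71 in 256cell, 4.35 in sphere, 1.83 in shield and 0.296 in 24hpf. If each mitochondrial fragment was counted 2 times these ratios are 3.397 in egg, 2.28 in 1cell, 3.35 in 256cell, 2.17 in sphere, 0.913 in shield and 0.148 in 24hpf. trnL1 stood above the cytoplasmic leucine reads in every library, by 10.8 times at 24hpf and 75.7 times at 1cell, or 5.40 and 37.8 times with halved reads. trnL2, the leucine tRNA of the region by RefSeq's names, stood farther above them in every library, with 10975 RPM (24hpf) to 61044 RPM (256cell). Cytoplasmic leucine reads were few, at 117 RPM (1cell) to 216 RPM (egg). Those of serine had 190 RPM (shield) to 345 RPM (1cell), and those of histidine 345562 RPM (1cell) to 690584 RPM (24hpf). How completely the libraries captured each tRNA was not tested, so these are ratios of reads and not of molecules. The 2 serine tRNAs together, like trnD, trnK, trnG and trnH, stood below their cytoplasmic counterparts in every library, with 0.240 (24hpf) to 0.472 (egg) reads of trnS1 and trnS2 per cytoplasmic serine read, or 0.120 to 0.236 with halved reads.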

How the data were processed

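Per the labels' protocols, low-molecular-weight RNA was cut from a gel at 60 to 120 nt (60 to 100 nt in the sample descriptions), deacylated, end-repaired and treated with ALKB. Cutadapt 3.4, Bowtie2 2.4.2 and genome build GRCz11 are named in the submitters' processing notes, but the sources used here give neither their settings nor the treatment of reads shared by tRNAs. The authors deposited RPM values for the 22 mitochondrial tRNAs and for 3021 cytoplasmic read sequences. The mitochondrial table holds no sequences or read lengths.

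In each library 100% of the values in both tables were whole multiples of 1 read within 0.01 reads, which gave read numbers and library totals. Shares of the mitochondrial total were compared as log2((RPM + 1)/total); differences of at least 1 (2-fold) were counted, with no filter on low values. Intervals are exact Clopper-Pearson or conditional binomial intervals on halved read numbers. Later and earlier stages were compared with exact permutation tests (scipy 1.17.1), edgeR 4.0.16 (trimmed-mean factors) and limma 3.58.1, with Benjamini-Hochberg adjustment over the 22. The edgeR steps were also run on simulated reads in which the libraries of a group were replicates. Stages are not, so that run says nothing on how the test performs here. All members are named with their values. Other tRNAs are named as nearest profile, as most abundant, or where they bound the members. trnC, trnM, trnY and trnL2 were named after their values were seen. Libraries are single pools, so tests over stages measure only the spread between these 6 libraries. The members and lists were chosen with earlier results of these data known.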

Additional observations from a re-analysis of the deposited data

How the results depend on the processing

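The log2 share of 24hpf over egg was -1.48 for trnR with median-ratio factors and -1.27 for trnG with a pseudocount of 10 RPM. For 24hpf over egg, 2 members were at least 2-fold lower by share, 8 in RPM (with 22 of all 22) and 1 without trnV in the total (1 of 22). All 22 gave 5 lower with 1cell as the baseline and 4 with median-ratio factors. The number at least 2-fold higher, 0 by share, was 1 member with 1cell (2 of 22), 256cell (1 of 22), the added median of 5 libraries (1 of 22), a pseudocount of 10 RPM (1 of 22) or trnV left out (3 of 22). The member is trnS2 except with the pseudocount of 10 RPM, where it is trnS1 at 1.04. For later against earlier, RPM and limma on RPM gave 4 members and 15 of the 22 at least 2-fold lower, against 0 by share. In RPM 0 members did not overlap (0 of the 22 above and 1 below), against 1 by share (1 of the 22, later above). Leaving out 1 library gave 1 to 2 members above and 0 to 2 below, trnR and trnG without sphere. The same counts were not made over the 22, so these have no background to be read against. They are not particular to members, since several tRNAs that are not members, trnM, trnT, trnE and trnC among them, also did not overlap. Without sphere trnM lay below, at 0.740% in shield and 0.605% in 24hpf, against 0.854% in egg, its lowest earlier share. Without 1cell trnT lay above, at 0.498% (shield) to 0.534% (24hpf), against 0.347% in egg and 0.448% in 256cell. Without 256cell trnE lay above, at 0.497% (24hpf) to 0.563% (shield), against 0.309% in egg and 0.385% in 1cell. Without egg trnC lay below, at 0.106% (24hpf) to 0.171% (sphere), against 0.273% in 1cell and 0.220% in 256cell. The additional member above was trnL1 without 1cell, trnH without 256cell or sphere, and trnK without shield. In RPM the steps gave 2 members higher and 0 lower at 1cell (50.0% and 0.0% of the 22), against 0 and 1 by share (9.09% and 22.7%). At shield 6 members were lower in RPM (72.7%), against 0 by share (0.0%). At 24hpf 6 were lower and 0 higher in RPM (86.4% and 0.0%), against 2 and 1 by share (9.09% and 4.55%). The log2 ratio of the summed share, -0.20, was -1.97 in RPM, -2.00 among all listed reads (-2.09 with halved mitochondrial reads), -0.33 without trnL1 and -0.47 with trnL2 in its place. Later minus earlier turned negative in RPM and in limma on RPM for trnD (-0.47), trnH (-0.75), trnK (-1.04), trnL1 (-0.91) and trnS2 (-0.59). Scaling by RPM in place of the share shifted this difference by the same -1.09 for each of the 22. trnK was also at -0.027 in edgeR on reads, at -0.029 on halved reads, and at -0.066 (without 24hpf) to 0.19 with 1 library left out. trnS1 was at 0.52 with a pseudocount of 10 RPM and -0.31 to 0.26 with 1 library left out. Apart from this shift with RPM, the cause of these moves was not tested. A filter of 10 RPM kept all 22. No paired analysis was possible because each stage has a single library. Alternatives with trnL2, without trnL1, with halved reads, with the median of 5 libraries and limma on shares were chosen after seeing the data. Depth limits trnS1, with 14 reads at 24hpf, and trnD and trnG, with 120 and 128.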
